A study of Mus musculus with 6 samples.

Results

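The miR-181 family was measured through 4 of the 199 mature miRNAs in a count table of mouse small intestinal organoids. The members were taken by name, as every row of that table that is an arm of a miR-181 hairpin: mmu-miR-181a-5p, mmu-miR-181b-5p, mmu-miR-181d-5p and mmu-miR-181c-3p, written without the species prefix from here on. All 4 passed the filter on low counts and were among the 195 miRNAs tested. The organoids were epithelial cultures grown from isolated crypts in Matrigel and a commercial growth medium for mouse organoids. In 3 libraries they had received BMP4 (bone morphogenetic protein 4) at 0.5 µg/ml for 4 days, and in the other 3 libraries PBS, the control, in its place. The study's methods speak in general of replicates for each culture condition and of repeated experiments, but no source gives the age or number of the mice behind these libraries or says which libraries are separate cultures. The p-values therefore describe library-to-library spread, part or all of which may be technical. Whether BMP4-exposed organoids hold less of these miRNAs is the question of the comparison.

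A miRNA is cut from a hairpin precursor, and either side of the hairpin can give a mature arm, named 5p or 3p. The arm is carried by an Argonaute protein, which it guides to messenger RNAs mainly through its seed, bases 2 to 8. The 5p arms are the usual guides of the miR-181 family, which is best known from lymphocytes, where in mice miR-181a sets the sensitivity of developing T cells to antigen. BMP4 is a ligand of the TGF-beta superfamily that acts through receptor kinases and SMAD proteins, and in the intestine BMP signalling is strongest towards the villus, away from the dividing crypt base.

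The mature sequences show which arms can act on the same sites and which could be confused in counting. They are the RefSeq sequences on GRCm38.p6, 5′ to 3′, with the seed in capitals.
miR-181a-5p: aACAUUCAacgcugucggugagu
miR-181b-5p: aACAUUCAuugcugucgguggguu
miR-181d-5p: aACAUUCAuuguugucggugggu
miR-181c-3p: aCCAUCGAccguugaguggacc
The 3 5p arms share the seed ACAUUCA, and no other of the 177 table rows with a RefSeq sequence has it. Counted from base 1 at the 5′ end over 23 bases, miR-181b-5p differs from miR-181a-5p by A9U, C10U and A21G, and miR-181d-5p from miR-181a-5p by these and C12U. From miR-181b-5p to miR-181d-5p the only substitution over those bases is C12U. The arm miR-181c-3p has the seed CCAUCGA, shared by no other of those rows, and lies on the opposite side of its hairpin from the family's usual guides. The related 3p arm miR-181a-1-3p has that seed too, and miR-181c-3p differs from it by U16G and U19G.

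These arms come from 6 hairpins that lie in pairs on 3 chromosomes. Mir181a-1 (chromosome 1, 137966455 to 137966541, + strand, GRCm38) and Mir181b-1 (137966639 to 137966718) are 97 bases apart within an exon of the long non-coding RNA A430106G13Rik in the GENCODE M21 annotation. Mir181a-2 (chromosome 2, 38852735 to 38852810, + strand) and Mir181b-2 (38853830 to 38853918) are 1019 bases apart in an intron of Nr6a1, a nuclear receptor gene on the opposite strand. Mir181d (chromosome 8, 84178716 to 84178787, − strand) and Mir181c (84178873 to 84178961) are 85 bases apart in an intron of Nanos3 on the same strand. The mature miR-181a-5p and miR-181b-5p are the same sequence from either of their loci, so their counts pool chromosomes 1 and 2, whereas miR-181d-5p and miR-181c-3p come from chromosome 8 alone. The hairpins of the arms that differ at base 12 are printed with the 5p arm in capitals, to show the loop and the opposite arm around each.
Mir181b-1: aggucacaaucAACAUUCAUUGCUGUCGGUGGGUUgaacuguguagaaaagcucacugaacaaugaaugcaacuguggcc
Mir181d: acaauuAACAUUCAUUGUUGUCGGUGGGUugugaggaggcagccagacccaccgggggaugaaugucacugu

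The libraries held from 998854 to 3486409 counts with BMP4 and from 259811 to 2248866 counts with PBS. Levels are given as CPM, counts scaled to 1e6 per library, with library sizes adjusted by TMM, the trimmed mean of M values, so that most miRNAs are taken as unchanged. The TMM factors ran from 0.375 to 0.651 in BMP4 and from 1.78 to 1.97 in PBS libraries. miR-215-5p alone, an intestinal epithelial miRNA, took 605546, 605638 and 1853683 of the BMP4 counts and 33201, 349455 and 339937 of the PBS counts. BMP4 replicate 2 had the lowest factor, and results that rest on it are also given without it. On the second principal component of all miRNAs it was at -8.79, opposite to BMP4 replicates 1 and 3 (7.90 and 3.62). The PBS libraries lay between, from -1.68 to -0.23, so this component spreads the BMP4 group. On the first component (68.6%) replicate 2 was at 13.3, apart from BMP4 replicates 1 and 3 (7.76 and 7.72) and furthest from the PBS libraries (-11.1 to -8.18). Calls are at an adjusted p below 0.05 in edgeR's quasi-likelihood test (Benjamini-Hochberg over 195 miRNAs). By that rule 30.3% of all tested miRNAs were called, 12.8% lower and 17.4% higher in BMP4.

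In BMP4 organoids 3 of the 4 arms fell and none rose, and in all 4 the BMP4 libraries lay under the PBS libraries without overlap. The background for the first count is the 12.8% of all miRNAs called lower, and for the second 20.0% of all miRNAs had BMP4 values entirely under the PBS values. Without BMP4 replicate 2 the same 3 arms fell, where 16.7% of all miRNAs did. The median log2 fold change of the 4 arms was -1.63, against 0.03 over all tested miRNAs. The study picked this family from these same libraries, and its direction here is therefore no independent evidence. Apart from the sequencing, the study reported lower miR-181 members by qPCR, and lower miR-181a-5p in human duodenum organoids given BMP4. The plot of the arms by library shows the separation and the counting error behind each point.

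**Figure D1:**
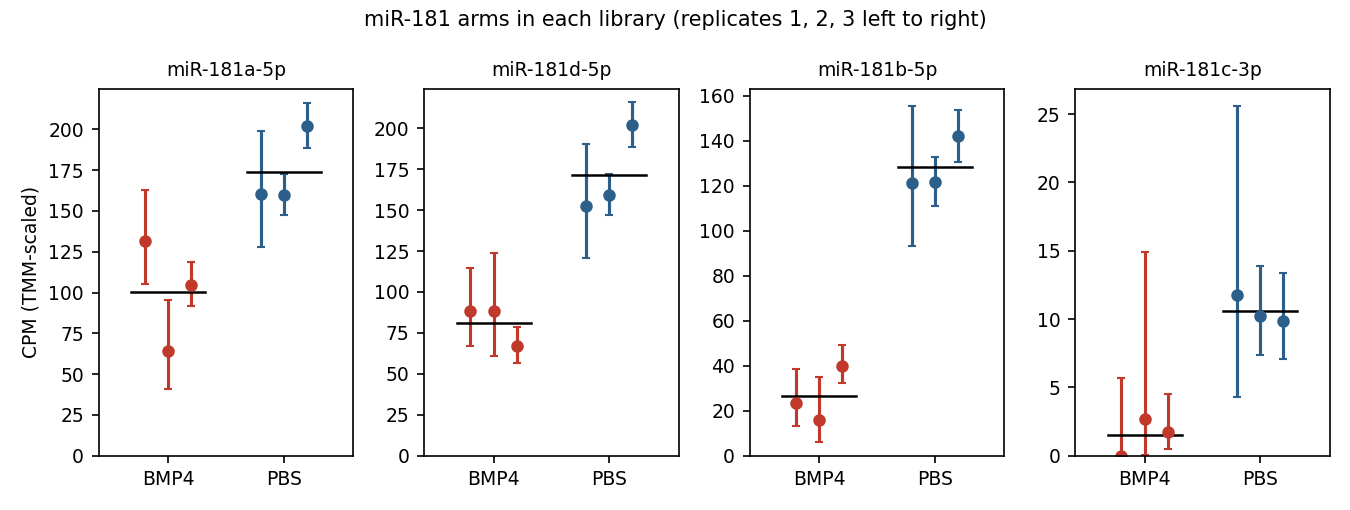
CPM (TMM-scaled) of the miR-181 arms in each library, BMP4 left and PBS right, with points for replicates 1, 2 and 3, vertical bars for the 95% Poisson interval of the count and black lines for group means. In each panel the 3 BMP4 points sit under the 3 PBS points, and miR-181c-3p has wide intervals because its BMP4 counts were 0, 1 and 4.

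miR-181b-5p had the clearest fall of the 5p arms. It was counted 15, 6 and 91 times in BMP4 replicates 1, 2 and 3, or 23.3, 16.0 and 40.1 CPM, against 62, 486 and 590 times in PBS replicates 1, 2 and 3, or 121, 122 and 142 CPM. The highest BMP4 value was far under the lowest PBS value, and the Poisson intervals of the groups did not meet (upper limit 49.2 CPM in BMP4 replicate 3, lower limit 93.0 CPM in PBS replicate 1). The log2 fold change was -2.17 ± 0.42 (SE, n = 3 per group, edgeR adjusted p = 0.000357), the 7th lowest of 195. The arm was 93rd of the 195 by mean CPM in PBS and 140th in BMP4. Leaving out any library kept the call, with values from -2.67 to -1.96.

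miR-181d-5p, whose bases are all but 1 shared with that arm, was lower by less. Its counts were 57, 33 and 152 in BMP4 libraries, or 88.4, 88.2 and 67.0 CPM, against 78, 636 and 839 in PBS libraries, or 153, 159 and 202 CPM. The groups did not overlap, but the upper Poisson limit of BMP4 replicate 2 (124 CPM) passed the lower limit of PBS replicate 1 (121 CPM). Its log2 fold change was -1.09 ± 0.37 (SE, n = 3 per group, edgeR adjusted p = 0.0306). The call rested on several libraries, as the adjusted p by edgeR was 0.0553, 0.0948 and 0.186 without PBS replicate 1, 2 and 3, and 0.148 without BMP4 replicate 3.

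miR-181a-5p was the arm the study inhibited in its later experiments, and the study listed it with the others as significantly lower in the sequencing. Here it did not pass the threshold of an adjusted p below 0.05. The study's methods name edgeR but give no scaling or adjustment over miRNAs for that call, so the rules may differ. It had 85, 24 and 237 counts in BMP4 libraries, or 132, 64.1 and 104 CPM, against 82, 639 and 839 counts in PBS libraries, or 161, 160 and 202 CPM. BMP4 replicate 1 lay closest to the PBS libraries, with a Poisson interval of 105 to 163 CPM that took in the values of PBS replicates 1 and 2. The log2 fold change was -0.78 ± 0.38 (SE, n = 3 per group, edgeR adjusted p = 0.130, 75th smallest p of 195). Before adjustment the edgeR p was 0.050006. The low library, BMP4 replicate 2, rests on 24 counts, and without it the value was -0.58 (edgeR adjusted p = 0.170).

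miR-181c-3p was the rarest of the arms and had the lowest fitted log2 fold change of the family, the 4th lowest of all. It was counted 0, 1 and 4 times in BMP4 libraries (0, 2.67 and 1.76 CPM) and 6, 41 and 41 times in PBS libraries (11.7, 10.3 and 9.87 CPM). In BMP4 replicates 1 and 2 the counts were under the floor of 3 counts, which on this scale is worth 4.65 and 8.02 CPM. Levels under those values could be missed at the depth of these libraries, while the PBS values all lay above them. Pooled over libraries, 5 BMP4 counts stood against 88 PBS counts, a ratio per library total of 0.0474 (95% exact interval 0.0150 to 0.115), or 0.150 (0.0474 to 0.363) on the TMM library sizes, counting error only. The fitted log2 fold change was -2.74 ± 0.63 (SE, n = 3 per group, edgeR adjusted p = 0.00210) and kept its call with any library left out, but its size depends on how zeros are handled.

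**Figure D2:**
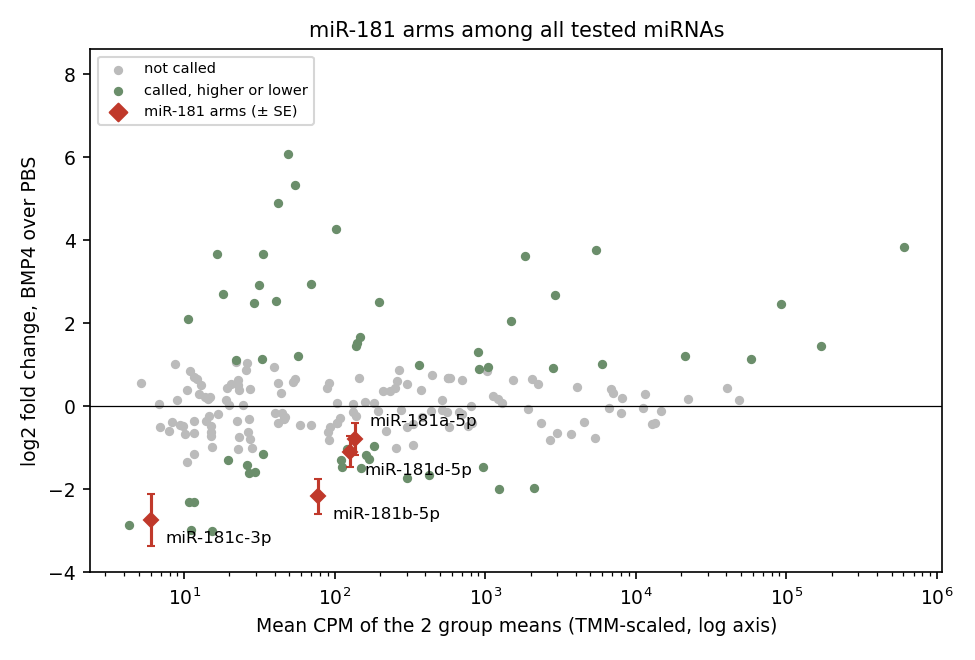
Log2 fold change of BMP4 over PBS against mean CPM (TMM-scaled, log axis) for the 195 tested miRNAs, with the miR-181 arms as red diamonds with SE bars, other called miRNAs in green and the rest in grey. miR-181b-5p (-2.17) and miR-181c-3p (-2.74) lie at the lower edge of the cloud, while miR-181a-5p (-0.78) lies among miRNAs that were not called.

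In the order of levels, miR-181a-5p and miR-181d-5p shared the top place in PBS, at 174 ± 24.1 and 171 ± 26.8 CPM (SD, n = 3), neighbours in rank (84th and 85th of 195). Their counts were nearly the same in each PBS library, with ratios of miR-181d-5p to miR-181a-5p of 0.952, 0.995 and 1, and in PBS replicate 3 each was counted 839 times. Whether reads shared between these similar arms were counted for both was not tested. miR-181b-5p followed at 128 ± 11.9 CPM and was lower than both in all 3 PBS libraries. miR-181c-3p was far below, at 10.6 ± 0.992 CPM, in 175th place. In BMP4 the means kept this order, at 100 ± 34.0 CPM for miR-181a-5p, 81.2 ± 12.3 CPM for miR-181d-5p, 26.5 ± 12.3 CPM for miR-181b-5p and 1.48 ± 1.36 CPM for miR-181c-3p (SD, n = 3). The top pair did not differ beyond its spread, since miR-181d-5p stood at 0.673, 1.37 and 0.642 times miR-181a-5p, above it in BMP4 replicate 2 and below it in the other BMP4 libraries. miR-181b-5p was again lower than both in every BMP4 library.

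Ratios between arms within a library do not depend on how libraries are scaled, and they tested whether the arms fell by unequal amounts (0.5 was added to each count). miR-181b-5p was present at 0.181, 0.265 and 0.385 times miR-181a-5p in BMP4 libraries, against 0.758, 0.761 and 0.703 times in PBS libraries. These hairpins are neighbours at both of their loci, yet the ratio did not overlap between the groups and its log2 value was lower in BMP4 by a mean difference of -1.48. Against miR-181d-5p, miR-181b-5p stood at 0.270, 0.194 and 0.600 in BMP4 and at 0.796, 0.764 and 0.703 in PBS, again without overlap (mean log2 difference -1.26). For both ratios the exact 2-sided permutation p was 0.1, the smallest that 3 libraries against 3 allow, and 0.2 after adjustment over the 6 pairs of arms. Thus the design could not place these differences under 0.05. miR-181b-5p and miR-181d-5p differ by C12U alone over 23 bases, and how reads shared between arms were counted was not tested.

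The remaining pairs involved miR-181c-3p or the top pair. The ratio of miR-181c-3p to miR-181d-5p, arms of adjacent hairpins, was lower in BMP4 without overlap (mean log2 difference -1.51, exact permutation p = 0.1, 0.2 adjusted), but its BMP4 values rest on 0, 1 and 4 counts and it was at -0.82 without BMP4 replicate 1. miR-181c-3p over miR-181a-5p overlapped between groups (-1.74, exact permutation p = 0.2). Without BMP4 replicate 2 it was at -2.59 (exact permutation p = 0.1), on few counts. For miR-181d-5p over miR-181a-5p the groups overlapped and the mean log2 difference was -0.23 (exact permutation p = 0.4), with a range of -0.58 to -0.03 when each library was left out. The overlap came from BMP4 replicate 2 alone. Without that library the difference was -0.58 and the groups did not overlap (exact permutation p = 0.1, the smallest possible). For miR-181b-5p over miR-181c-3p no direction held, with 0.26 over all libraries and -0.32 without BMP4 replicate 1.

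**Figure D3:**
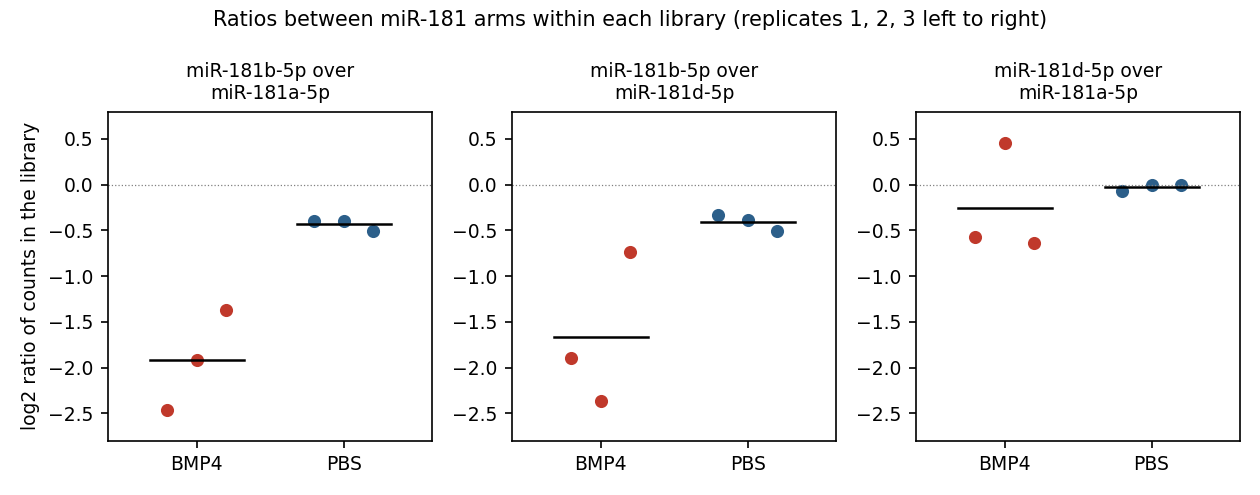
Log2 ratio of counts between pairs of 5p arms within each library, BMP4 left and PBS right, with points for replicates 1, 2 and 3 and black lines for group means. The ratios of miR-181b-5p to miR-181a-5p and to miR-181d-5p are lower in all BMP4 libraries, while miR-181d-5p over miR-181a-5p scatters on either side of the PBS points.

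The 5p arms differ by few bases, so a read could be assigned to another arm, and the 3 were therefore also added up. The sum does not depend on how reads are split among the arms. A read counted for more than 1 arm would still enter it more than once. Together they held 157, 63 and 480 counts in BMP4 libraries, against 222, 1761 and 2268 in PBS libraries. Fitted as a joint feature in place of the 3 arms, among 193 miRNAs, the sum fell (log2 fold change -1.11 ± 0.33, SE, n = 3 per group, edgeR adjusted p = 0.0174). Without BMP4 replicate 3, PBS replicate 2 or PBS replicate 3 the sum was not called (adjusted p = 0.0579, 0.0511 and 0.103). As a part of all counts in a library, with no scaling, the 4 arms amounted to 146, 64.1 and 139 CPM of the plain total in BMP4 and to 878, 801 and 1085 CPM in PBS. The mean was 0.126 times that of PBS (116 ± 45.4 CPM in BMP4 and 921 ± 147 CPM in PBS, SD, n = 3, exact permutation p = 0.1, the smallest possible).

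How far the family fell thus hangs on the scale. Relative to all counts, the log2 fold change was -2.53 for miR-181a-5p, -2.91 for miR-181d-5p, -3.90 for miR-181b-5p and -4.39 for miR-181c-3p, and all 4 were called lower by edgeR, but so were 81.0% of all tested miRNAs, and the median of all miRNAs shifted to -1.78. Measured from that median, the arms stood at -0.75, -1.13, -2.12 and -2.60, close to their distances from the median on the TMM scale (-0.82, -1.13, -2.20 and -2.77). A change of scale moves all miRNAs by nearly the same amount, so this closeness was fixed beforehand and is no check of the fall. With all counts from arms of miR-192, of miR-194 and of miR-215 taken out of the library totals and no other scaling, miR-181a-5p was at -0.99 (edgeR adjusted p = 0.142) and not called, and the other arms were called lower, where 13.1% of all miRNAs were.

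**Figure D4:**
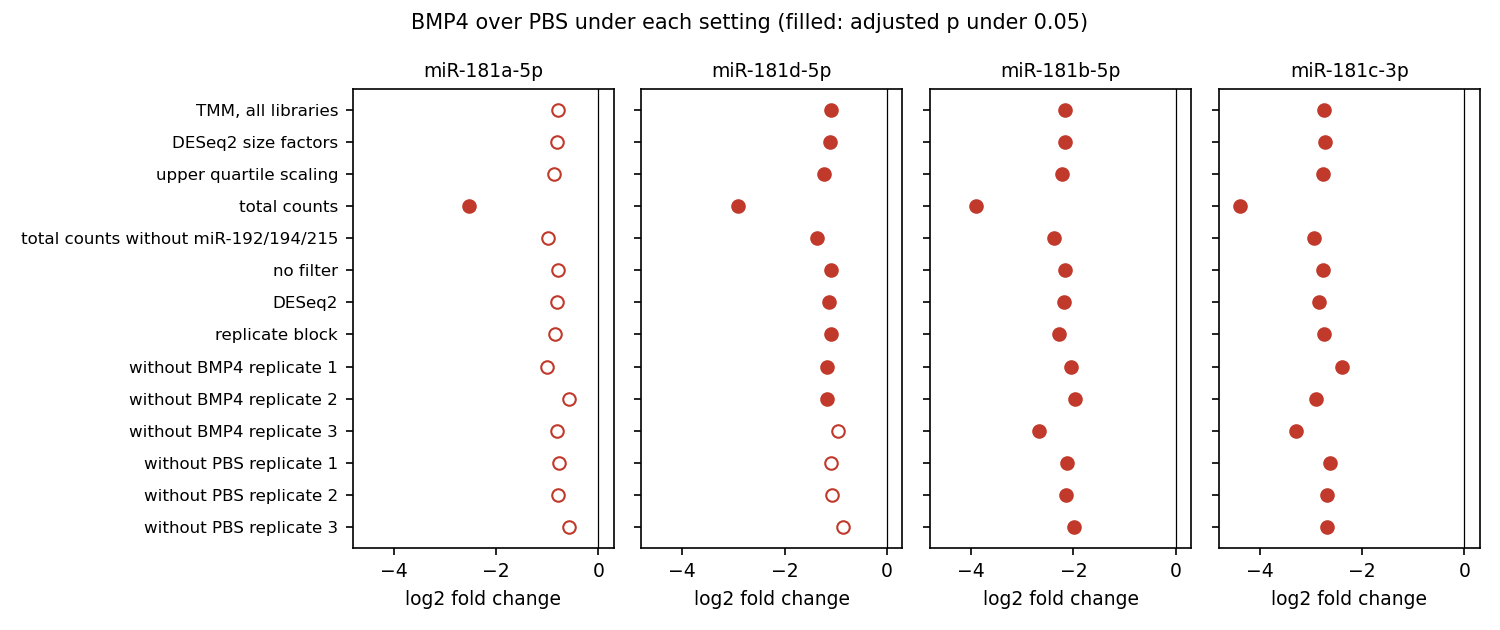
Log2 fold change of BMP4 over PBS for each miR-181 arm (columns) under each scaling, filter, tool and left-out library (rows), filled where the adjusted p was under 0.05. All values are negative, miR-181b-5p and miR-181c-3p are filled throughout, and miR-181a-5p is filled with total counts only.

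Mir181c and Mir181d have neighbours on chromosome 8 that moved the other way. The hairpins Mir23a (84208518 to 84208592, + strand), Mir27a (84208672 to 84208758) and Mir24-2 (84208815 to 84208921) lie on the opposite strand, 29556 bases beyond Mir181c, with the lincRNA Gm26887 and the unclassified gene model Gm37352 in the gap. Of 5 arms listed for these hairpins, 4 were in the table, and 4 of 4 rose in BMP4 on the TMM scale, where 17.4% of all miRNAs did. The 3p arm of Mir24-2, miR-24-3p, was tested but was not on that list. Its groups overlapped and it was not called (log2 fold change 0.44, edgeR adjusted p = 0.498). miR-23a-3p, a miRNA expressed in many tissues, had 220, 116 and 802 counts in BMP4 libraries and 31, 207 and 270 in PBS libraries, and it rose by 2.50 ± 0.37 on the log2 scale (SE, n = 3 per group, edgeR adjusted p = 1.54e-05). miR-24-2-5p (2.94 ± 0.44) and miR-27a-5p (2.48 ± 0.43) rose likewise, and miR-27a-3p by 0.95 ± 0.34 (adjusted p = 0.0409), a call lost without BMP4 replicate 1 (adjusted p = 0.140), BMP4 replicate 3 (0.114) or PBS replicate 1, 2 or 3 (0.149, 0.0933 and 0.0533). Upper quartile scaling (adjusted p = 0.0660), no filter (0.0511), the replicate block (0.0943) and totals without all miR-192, miR-194 or miR-215 arms (0.236) lost it as well by edgeR, which leaves 3 of 4. Mir23b and Mir27b elsewhere in the genome give near-identical 3p arms, so the split of reads among these copies is uncertain. With total counts miR-24-2-5p stayed called (1.19), miR-23a-3p (0.71) and miR-27a-5p (0.67) were not called, and miR-27a-3p turned to -0.79.

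The difference between these neighbours was also given as their ratio, which needs no scaling. On the TMM scale each miR-181 arm was already lower, and miR-23a-3p higher, without overlap between the groups. Their ratios therefore had to separate the groups. The permutation p of 0.1 was fixed beforehand and adds no support, and the ratios only describe the size of the difference. miR-181d-5p was counted 0.261, 0.288 and 0.190 times as often as miR-23a-3p in BMP4 libraries, against 2.49, 3.07 and 3.10 times in PBS libraries, so that the more abundant of the 2 miRNAs was miR-23a-3p in each BMP4 library and miR-181d-5p in each PBS library. The mean log2 difference was -3.57 (exact permutation p = 0.1, the smallest possible), and between -3.69 and -3.39 with any library left out. Against the 4 neighbours summed it was smaller, at -2.32 (exact permutation p = 0.1). miR-27a-3p was more abundant than miR-181d-5p in every library, so the change of order depends on the neighbour chosen. The ratio of miR-181c-3p to miR-23a-3p was lower by -5.08 on that scale, with few BMP4 counts of miR-181c-3p behind it. This opposition was not particular to the chromosome 8 arms, since miR-181a-5p (-3.34) and miR-181b-5p (-4.82), from other chromosomes, also lay lower against miR-23a-3p in every BMP4 library.

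**Figure D5:**
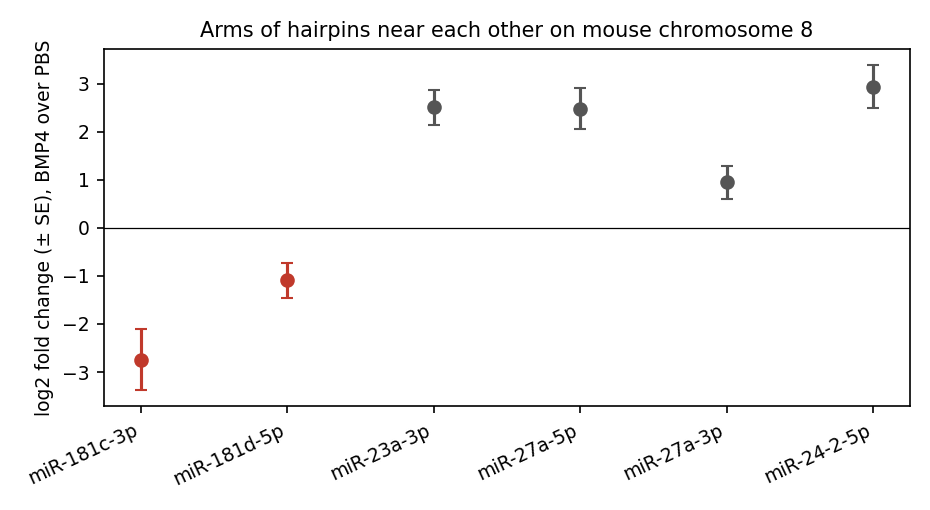
Log2 fold change of BMP4 over PBS (TMM scale, bars are SE) for arms of hairpins close to each other on chromosome 8. miR-181c-3p and miR-181d-5p are in red and the listed arms of Mir23a, Mir27a and Mir24-2 in grey, without miR-24-3p, which was not called. The red points lie at -2.74 and -1.09 and the grey points between 0.95 and 2.94; on total counts miR-27a-3p is at -0.79.

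The miRNAs with the most similar pattern to each arm were taken as the 3 with the highest Pearson correlation of log2 CPM over the 6 libraries, among those with a mean CPM of at least 10. These correlations are a description, and because the libraries form 2 groups they mostly reflect the difference between BMP4 and PBS. For miR-181a-5p they were miR-106b-5p (r = 0.980), miR-15b-5p (0.979) and miR-340-3p (0.978). miR-181b-5p was closest to miR-34c-5p (0.986), a p53 target, then to miR-20a-5p (0.971) and miR-340-5p (0.969). miR-181d-5p was closest to miR-93-5p (0.949), miR-17-3p (0.940) and miR-20a-5p (0.918), and miR-181c-3p to miR-342-3p (0.975), miR-671-5p (0.964) and miR-106a-5p (0.956). For the deviations from the group means, the correlation with the closest miRNA was 0.970 for miR-181a-5p, 0.854 for miR-181b-5p, 0.530 for miR-181d-5p and 0.908 for miR-181c-3p. The further partners of miR-181d-5p were at 0.265 (miR-17-3p) and -0.037 (miR-20a-5p), and those of the other arms at 0.64 or more.

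Of these 11 miRNAs, 4 carry the seed AAAGUGC of miR-17, whose clusters are known from dividing cells. They are printed as RefSeq gives them, seed in capitals, to show that their seed differs from those of the miR-181 arms they resemble in pattern across libraries.
miR-20a-5p: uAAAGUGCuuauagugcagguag
miR-93-5p: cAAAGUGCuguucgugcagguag
miR-106b-5p: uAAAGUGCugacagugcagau
miR-106a-5p: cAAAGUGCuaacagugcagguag
Over the list of proliferation-linked arms from the miR-17-92 and miR-106b-25 clusters, 8 of 13 tested fell and none rose, with a median log2 fold change of -1.45, where 12.8% of all tested miRNAs fell. With total counts all 13 were called lower, but so were 81.0% of all tested miRNAs. miR-20a-5p averaged 868 ± 201 CPM in BMP4 and 3372 ± 457 CPM in PBS (SD, n = 3), a log2 fold change of -1.95 ± 0.31 (SE, edgeR adjusted p = 4.76e-05), and miR-106b-5p, next below miR-181d-5p by level in PBS, averaged 59.3 ± 26.2 CPM in BMP4 and 164 ± 38.1 CPM in PBS. miR-106b-5p was called lower (-1.45, edgeR adjusted p = 0.0102), but not without PBS replicate 3 (0.101).

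miRNAs of similar level in PBS did not all fall with the family. Just above miR-181a-5p stood miR-1839-5p, at 189 ± 119 CPM in BMP4 and 177 ± 20.4 CPM in PBS (SD, n = 3). miR-186-5p, just above miR-181b-5p, was at 134 ± 48.9 CPM in BMP4 and 130 ± 18.0 CPM in PBS. For miR-181c-3p the neighbour above, miR-324-3p, was at 9.09 ± 1.49 CPM in BMP4 and 10.7 ± 6.07 CPM in PBS. The neighbour below, miR-191-3p, had 10, 0 and 12 counts (15.5, 0 and 5.29 CPM) in BMP4 libraries and 6, 31 and 40 counts (11.7, 7.75 and 9.63 CPM) in PBS libraries, so that it too was not counted in 1 BMP4 library, replicate 2.

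Other lists were counted beside the miR-181 arms in the same libraries. Among miRNAs of mature intestinal epithelium (arms from miR-192, miR-194, miR-215), 6 of 6 tested rose on the TMM scale, where 17.4% of all miRNAs did. With total counts 4 of them were called higher and 2 lower, against 13 higher and 158 lower of all 195. Among the miR-200 family and its cluster mates, which mark epithelial cells, 1 of 8 rose and none fell, a share near that of all miRNAs, at summed TMM levels of 65731 to 81767 CPM in BMP4 and 65184 to 71998 CPM in PBS libraries. With total counts all 8 were called lower, where 81.0% of all miRNAs were. As miR-181 is also a lymphocyte miRNA, markers of other cells were examined beside it. Of 7 immune markers 3 were in the table, miR-146a-5p, miR-155-5p and miR-342-3p, with summed levels of 82.2 to 134 CPM in BMP4 and 87.1 to 94.0 CPM in PBS libraries. Of these, miR-146a-5p was called higher (1.22 on the log2 scale, edgeR adjusted p = 0.0238), which did not hold without BMP4 replicate 3 (0.0691) or PBS replicate 1 (0.0641) or 3 (0.104), and with total counts it was at -0.58. miR-342-3p was called lower (-1.58, edgeR adjusted p = 0.0108), which did not hold without BMP4 replicate 1 (0.0588) or 3 (0.0698) or PBS replicate 1 (0.0536) or 3 (0.101). The defining immune miRNAs miR-142a, miR-150 and miR-223 and the 7 stromal and 5 erythroid markers were not analysed here. The endothelial marker miR-126a-3p had 43.4 to 58.8 CPM in BMP4 and 50.9 to 81.2 CPM in PBS libraries and was not called on the TMM scale. A neuronal marker, miR-128-3p, had 534 to 935 CPM in BMP4 and 207 to 563 CPM in PBS libraries and was not called either (log2 fold change 0.68, edgeR adjusted p = 0.206). The other neuronal marker in the table, miR-9-5p, did not pass the filter on low counts and was not tested. With total counts 2 of the 3 immune markers, miR-126a-3p and miR-128-3p were called lower, as were most miRNAs. The part of other cell types in the fall of the miR-181 arms was not tested, and in bulk RNA fewer cells that hold a miRNA cannot be told apart from less of it per cell.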

How the data were processed

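Small RNA was sequenced from 3 BMP4 and 3 PBS libraries of mouse intestinal organoids. The authors removed adaptors with bbmap, kept inserts of miRNA length and used the default mapping and quantification steps of miRDeep2 with miRBase. They deposited raw counts for each mature miRNA. The genome build, the miRBase release and the rule for keeping the 199 rows were not given in the sources used here. edgeR is named in the submitters' processing notes.

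The comparison used edgeR 4.0.16 under R 4.3.3 (filterByExpr, TMM, quasi-likelihood F test, 2-sided, Benjamini-Hochberg over 195 miRNAs), with DESeq2 1.42.0 as an alternative. Each SE is the absolute log2 fold change over the square root of F. Ratios within a library used a pseudocount of 0.5 and an exact 2-sided permutation test. Intervals are 95% exact Poisson or binomial intervals and, like the floor of 3 counts, cover counting error only, as reads copied by PCR need not be separate molecules. Replicates of a group differed by far more than sampling noise (chi-square over degrees of freedom of at least 48.5). It was 48.5 between BMP4 replicates 1 and 3, and 284 and 324 between these and BMP4 replicate 2. Between PBS libraries it was 55.4 to 154. The members, lists and tests were chosen with earlier results of these data known. The text names the 4 arms, the 3 miRNAs most like each, the chromosome 8 neighbours, the miRNAs next to an arm in PBS level and listed miRNAs needed for a count. Sequences are RefSeq's on GRCm38.p6 (177 of 199 rows matched by name) and hairpin positions those of GENCODE M21 on GRCm38. Figures were drawn with matplotlib 3.10.9 in Python 3.11.15.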

Additional observations from a re-analysis of the deposited data

How the results depend on the processing

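All 53 values of the 4 arms under the alternatives were negative. miR-181b-5p and miR-181c-3p kept their calls under every alternative run; miR-181a-5p was called with total counts only (-2.53, adjusted p = 0.000422 by edgeR), with an adjusted p of up to 0.439 (without PBS replicate 3), and 0.0760 by DESeq2. Leaving out each library gave -1.17 to -0.86 for miR-181d-5p, -1.01 to -0.58 for miR-181a-5p, -1.32 to -0.98 for the 5p arms summed and 2 to 3 arms called lower. Total counts gave 171 called miRNAs, 13 higher and 158 lower, against 59, 34 and 25 with TMM, and leaving out each library gave 35 to 71, 24 to 38 and 11 to 33. The pooled ratio of miR-181c-3p was 0.0474 on total counts and 0.150 on TMM library sizes. The log2 ratio of miR-181b-5p to miR-181c-3p was -0.17 with a pseudocount of 1, against 0.26 with 0.5, and ran from -0.32 to 1.10 with a library left out. The cause of these shifts was not tested beyond the scaling itself. With the replicate number as a block the arms were at -0.84 (miR-181a-5p, adjusted p = 0.115), -2.28, -1.09 (miR-181d-5p, 0.0428) and -2.73 (miR-181c-3p, 0.0305), with 3 called as without it. No source says that the numbers pair the libraries. The deviations of same-numbered libraries correlated at 0.0430, 0.0943 and -0.0128, but a weak shared effect could give such values too, so pairing stays undecided. Depth limits miR-181c-3p most, with 0 to 4 counts in a BMP4 library.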
